A study of Mus musculus with 4 samples.

Results

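Cyclic nucleotide signalling carries messages from receptors on the cell surface through the small diffusible molecules cAMP and cGMP. Adenylyl cyclases make cAMP when G proteins or calcium activate them, and soluble guanylyl cyclase makes cGMP when it binds nitric oxide. cAMP releases the catalytic subunits of protein kinase A (PKA) from its regulatory subunits, cGMP activates protein kinase G (PKG), anchoring proteins (AKAPs) hold PKA at chosen places in the cell, and phosphodiesterases (PDEs) end the signal. In prefrontal cortex this pathway is known for setting the strength of working-memory circuits, and in striatum it relays dopamine signals.

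The genes described here are those whose symbol begins with Pde, Adcy or Akap and a digit, or with Prkac, Prkar, Gucy1 or Prkg, and that had a probe set annotated to 1 symbol only. There were 62 such genes, read by 160 probe sets, among 18193 genes on the array: 25 of the Pde series, 10 adenylyl cyclases, 2 catalytic and 4 regulatory subunits of PKA, 16 AKAPs, 3 soluble guanylyl cyclase subunits and 2 PKG genes. Each gene was followed through its probe set with the highest mean, and the others served as a check. Not every name is a function: Pde4dip encodes a scaffold (myomegalin) that binds a phosphodiesterase, Pde6d a carrier of prenylated proteins, and Pde12 an RNA-degrading enzyme of mitochondria.

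Transcripts were measured on 4 Affymetrix 3' arrays of prelimbic cortex, a medial prefrontal area taken by punch from male mice at postnatal day 90. Of these, 2 arrays came from mice exposed to fluoxetine, a selective serotonin reuptake inhibitor, before birth, and 2 from untreated mice. Strain, dose, the days of exposure and whether an array held 1 mouse or several are not given in the sources used here, and the arrays of a group are called biological duplicates. Nothing in the labels says that the mice came from separate litters, so p-values measure only the spread between these arrays. Values are log2 intensities, so a difference of 1 is a doubling of signal. Levels of different probe sets cannot be set against each other.

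The arrays had medians of 6.44 and 6.47 with fluoxetine, against 6.50 and 6.48 without. Untreated replicate 2 stood apart in markers of striatum, which borders the punched area: all 17 measured markers of striatal medium spiny neurons were highest on it, and their mean was 8.15 and 8.43 on the fluoxetine arrays, against 8.28 and 9.23 on the untreated arrays. Of 12 measured oligodendrocyte markers, 11 were highest on it too, and so were 6571 of all 18193 genes. The means of 11 cortical projection neuron markers were 10.76 and 10.68 with fluoxetine, against 10.65 and 10.67 without. In tissue punches, fewer cells of a type and less RNA per cell cannot be told apart. The spiked poly-A control probe sets were higher with fluoxetine in 24 of 24 cases, by a median of 0.24. The part of these differences in the results below was not tested. Values given without untreated replicate 2 leave out that whole array and keep a single untreated array. They therefore do not separate its tissue content or spike signal from anything else that differs on it.

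Letters of the cAMP response element, the DNA site where CREB acts after PKA phosphorylates it, were looked for in promoters of the members. The stretches printed are a selection from the members that held such letters. RefSeq promoters on build GRCm38.p6, from 250 bases before to 50 after a listed start, were found for 50 of the 62 genes. In the stretches that follow, capitals mark the full palindrome TGACGTCA or its shorter form TGACG, on either strand (CGTCA on the other), and the shorter form lies within the palindrome.
Prkar1a, chr11:109650889-109650918, plus strand: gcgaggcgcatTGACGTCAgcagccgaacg
Prkar1b, chr5:139150034-139150063, minus strand: ttagagggcggagTGACGggcaggaggacg
Prkaca, chr8:83972828-83972977, plus strand: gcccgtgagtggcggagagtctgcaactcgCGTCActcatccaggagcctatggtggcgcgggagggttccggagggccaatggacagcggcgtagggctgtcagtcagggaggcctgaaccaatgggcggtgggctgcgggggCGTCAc
Akap11, chr14:78536961-78537110, minus strand: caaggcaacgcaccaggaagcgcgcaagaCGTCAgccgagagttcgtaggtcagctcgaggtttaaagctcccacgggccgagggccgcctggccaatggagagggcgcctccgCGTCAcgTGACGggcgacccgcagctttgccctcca
Pde1a, chr2:80039052-80039081, minus strand: tgtaacttcagccCGTCAttcctcagtaat
Prkar1a was the 1 gene of the 50 with the full palindrome, which began 49 bases before one of its 6 listed starts. Across all 32851 promoters of 27025 genes, 1.79% of promoters held the palindrome, against 2 of 95 (2.11%) among the members' promoters, both of Prkar1a. The shorter form stood in 20 of the members' 95 promoters (21.1%) and in 20.8% of all promoters. Counted by gene it stood in at least 1 promoter of 18 of the 50 members (36%), against 23.0% of all genes, and the members had more listed promoters per gene (95 for 50 genes, against 32851 for 27025). A match of letters does not show that the site is used.

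The comparison asked how the adult prelimbic levels of these genes differed after prenatal fluoxetine. No member passed the correction over all 18193 genes (limma, Benjamini-Hochberg; 0 of 62, lowest adjusted p 0.696), and 0% of all genes did. Before that correction, p lay below 0.05 for 5 members: Pde1a, Prkaca and Prkar1a, these 3 higher with fluoxetine, and Pde2a and Akap11, these 2 lower, while 57 members did not pass. That is 8.06% of the members, against 6.96% of all genes in either direction (3.45% higher and 3.51% lower), a share near the background. The median log2 difference was −0.01 over the members and −0.02 over all genes. Both fluoxetine arrays lay above both untreated arrays for 11 members (17.7%, against 15.5% of all genes), and below them for 12 (19.4%, against 22.3%). Without untreated replicate 2, 2 members were higher at an unadjusted p below 0.05 (Pde6d and Pde10a; 5% of all genes were) and 0 were lower (3.57% of all genes were), none of them among the earlier 5, and the sign of the difference turned for 11 of the 62. The count was 0 in both directions without fluoxetine replicate 1, where 0.995% of all genes were higher and 1.03% were lower. Leaving out untreated replicate 1 gave 4 higher members (6.45%, against 3.11% of all genes) and 11 lower ones (17.7%, against 6.33%). Untreated replicate 2 was the only untreated array in that fit, so these counts rest on its values. The lower ones included Pde1b, Pde1c, Pde7b, Pde8a, Pde10a and Adcy5, which are described below as high on that array. Their differences in that fit ran from −0.77 (Pde10a) to −0.40 (Pde8a). With 2 arrays against 2, an exact two-sided permutation test cannot give a p below 0.333.

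**Figure D1:**
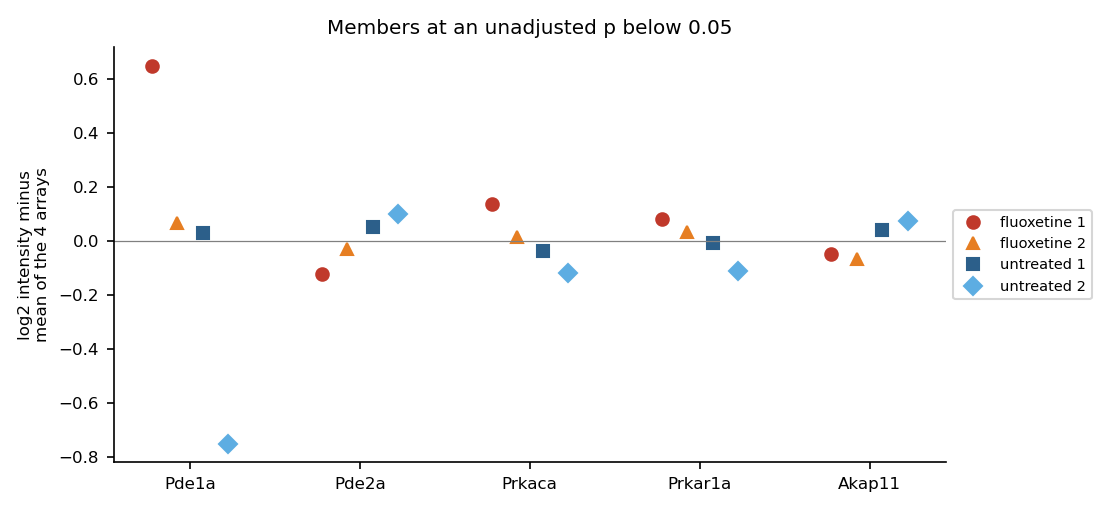
Log2 intensity on each array minus the mean of the 4 arrays (vertical axis) for the 5 members at an unadjusted p below 0.05, with fluoxetine arrays left of untreated arrays. Pde1a spans the widest range, from 10.93 on fluoxetine replicate 1 to 9.53 on untreated replicate 2, and in the other 4 genes the arrays lie much closer together.

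Among the phosphodiesterases, Pde1a, a calcium- and calmodulin-activated enzyme that breaks down both cAMP and cGMP, had the largest difference of any member. It read 10.93 and 10.35 on the fluoxetine arrays, against 10.31 and 9.53 on the untreated arrays. The groups did not overlap, but fluoxetine replicate 2 and untreated replicate 1 were almost level, and the other pair lay far to either side. The difference was 0.72 (SE 0.26, 1.64-fold; adjusted p 0.705 in limma), and 0.33 without untreated replicate 2. With 1 other array left out it was 0.43 (without fluoxetine replicate 1), 1.01 (without fluoxetine replicate 2) and 1.11 (without untreated replicate 1). Its other probe set, a dim one, differed by −0.02.

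Pde2a, which cGMP stimulates to break down cAMP, stood at 13.15 and 13.25 with fluoxetine, against 13.33 and 13.38 without. Both fluoxetine arrays were below both untreated arrays. The difference was −0.15 (SE 0.04, adjusted p 0.696 in limma), and −0.13 without untreated replicate 2. All 3 of its probe sets had a negative difference, between −0.15 and −0.03.

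In a further set of members, untreated replicate 2 differed from the other 3 arrays. An array was said to stand apart for a gene where its gap to the nearest other array exceeded both the range of the other 3 and 0.2, a rule chosen after the values were seen. Untreated replicate 2 stood apart for 7 members (11.3%, against 5.12% of all genes), of which 6 were high on it and 1, Pde1a, was low. The 6 were Pde1b, Pde1c, Pde7b, Pde8a, Pde10a and the adenylyl cyclase gene Adcy5. Fluoxetine replicate 1 stood apart for 3 members (Adcy4, Akap3 and Akap5; 4.84%, against 5.54% of all genes), untreated replicate 1 for 2 (Pde6a and Adcy10; 3.23%, against 5.28%) and fluoxetine replicate 2 for 0 (against 1.81%).

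Pde10a encodes the dual-specificity phosphodiesterase for which striatal medium spiny neurons are known. Its values were 10.18 and 10.37 with fluoxetine, against 10.04 and 11.05 without. The 3 arrays other than untreated replicate 2 lay within 0.331 of each other, and that array stood 0.849 above their mean. The difference was −0.27 (SE 0.28) over all arrays and 0.23 without untreated replicate 2, so that the sign turned. Its 5 probe sets all had negative differences over the 4 arrays, from −0.54 to −0.16. Adcy5, the main cAMP-making enzyme of striatum, gave 9.99 and 10.11 with fluoxetine, against 10.04 and 10.52 without. Its difference of −0.23 (SE 0.14) became 0.01 without that array. The other probe sets of Adcy5 differed by −0.01, −0.03 and −0.20, and in none of them was untreated replicate 2 the highest array.

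Pde1b, a calmodulin-dependent relative of Pde1a that is abundant in striatum, read 10.79 and 10.95 on the fluoxetine arrays, against 10.91 and 11.44 on the untreated arrays. Without untreated replicate 2 its difference of −0.30 (SE 0.15) was −0.04. Pde7b, a cAMP-specific enzyme, was also highest on untreated replicate 2, at 10.45 and 10.51 with fluoxetine and 10.44 and 10.92 without. Its difference was −0.20 (SE 0.14), or 0.04 without that array. Pde8a, a high-affinity cAMP phosphodiesterase, and Pde1c, the third calmodulin-dependent enzyme, had differences of −0.22 (SE 0.12) and −0.21 (SE 0.27), which were −0.03 and 0.27 without untreated replicate 2. The second probe set of Pde8a differed by 0.15 (SE 0.14), and fluoxetine replicate 1 was its highest array. The other probe sets of Pde1c ranged from −0.68 to 0.31. In all 6 genes the groups overlapped on the probe set used, and the 17 striatal markers had a median difference of −0.47, or 0.03 without untreated replicate 2. None of the markers is a member.

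**Figure D2:**
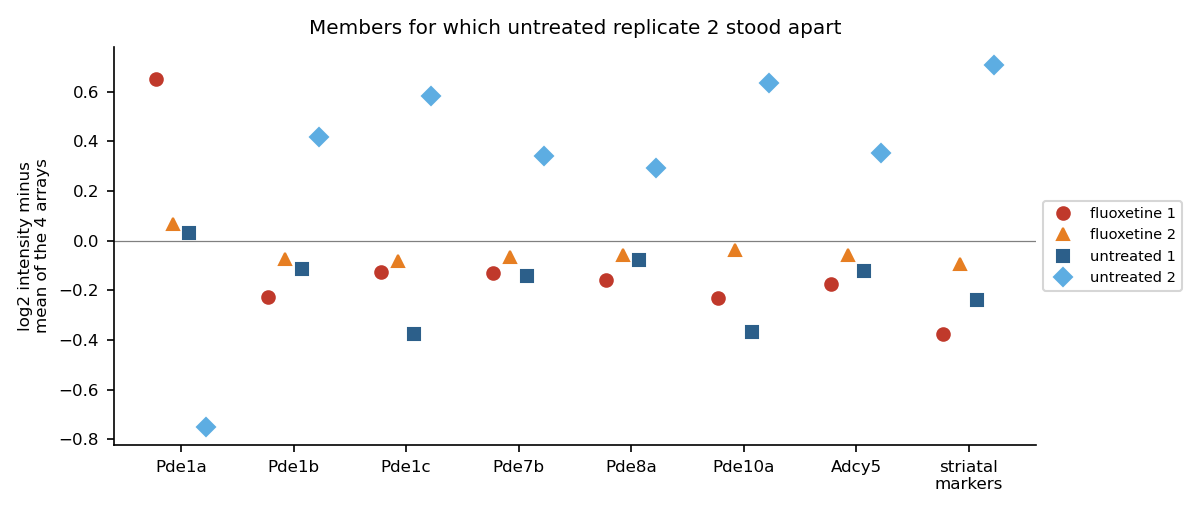
Log2 intensity on each array minus the mean of the 4 arrays (vertical axis) for the 7 members in which untreated replicate 2 stood apart, and for the mean of the 17 striatal markers. Untreated replicate 2 is the highest array in 6 of the 7 genes and in the markers, and the lowest in Pde1a.

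The cAMP-specific PDE4 enzymes, the targets of rolipram, differed by −0.11 (SE 0.09) for Pde4a, −0.08 (SE 0.08) for Pde4b and 0.03 (SE 0.05) for Pde4d, and in each the groups overlapped. Pde4b gave 10.33 and 10.29 with fluoxetine, against 10.27 and 10.52 without, and its difference was 0.04 without untreated replicate 2. Pde8b, the brain form of the PDE8 pair, had both fluoxetine arrays below both untreated arrays, at 10.50 and 10.56 against 10.59 and 10.73. Its difference was −0.13 (SE 0.06), or −0.05 without untreated replicate 2. Pde9a, the high-affinity cGMP enzyme, differed by −0.10 (SE 0.11), or 0.02 without that array. Pde6a, a subunit of the rod photoreceptor enzyme, had non-overlapping groups at very dim levels, 1.68 and 1.78 with fluoxetine against 2.14 and 1.90 without. At such levels a log2 difference can depend on the background correction, which was not varied here. The 14 Pde genes not picked out by the naming rule had differences between −0.22 and 0.13 and unadjusted p-values of at least 0.0901, and 10 of the 14 overlapped. Over all 25 the median was −0.08, and 0.02 without untreated replicate 2.

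The adenylyl cyclases other than Adcy5 showed small differences. Adcy1, the calcium- and calmodulin-stimulated cyclase of cortical neurons, read 12.42 and 12.40 with fluoxetine, against 12.40 and 12.27 without. The arrays other than untreated replicate 2 were nearly level, and the difference of 0.08 (SE 0.05) was 0.02 without it. Adcy8, the other calmodulin-stimulated form, differed by 0.05 (SE 0.09), Adcy2, which G protein beta-gamma subunits stimulate, by −0.07 (SE 0.05), Adcy3, known from neuronal cilia, by 0.03 (SE 0.08), and Adcy9, which forskolin hardly activates, by −0.06 (SE 0.05). For Adcy3 the groups overlapped and the other 3 probe sets were all negative, from −0.06 to −0.04. The 4 cyclase genes not picked out by the naming rule lay between −0.15 and 0.03. None of the 10 cyclase genes had an unadjusted p below 0.05, and their median was −0.02, or 0.01 without untreated replicate 2.

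All 6 PKA subunit genes had a positive difference, between 0.02 and 0.15 with a median of 0.07. At an unadjusted p below 0.05 in limma, 2 of the 6 were higher, against 3.45% of all genes. That share was 5.75% when only genes above the median level were fitted. All 6 had levels above the median of all genes, where 51.9% of genes had a positive difference. Prkaca, a catalytic subunit, gave 12.15 and 12.02 with fluoxetine, against 11.97 and 11.89 without. Both fluoxetine arrays were above both untreated arrays, with the nearest pair close together. The difference was 0.15 (SE 0.06, adjusted p 0.704 in limma) and 0.11 without untreated replicate 2 or 0.09 without fluoxetine replicate 1, while its second probe set differed by −0.01. Prkacb, the catalytic subunit that neurons also use, read 12.58 and 12.47 with fluoxetine, against 12.54 and 12.47 without. Its groups overlapped and the difference was 0.02 (SE 0.05).

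Prkar1a, the widely used type I regulatory subunit and the carrier of the palindrome printed above, stood at 13.15 and 13.11 with fluoxetine, against 13.06 and 12.96 without. The groups did not overlap. Its difference was 0.12 (SE 0.05, adjusted p 0.705 in limma), or 0.06 without untreated replicate 2. Prkar1b, the neuronal type I subunit, differed by 0.03 (SE 0.04) and Prkar2a, a type II subunit, by 0.05 (SE 0.08), both with overlapping groups. Prkar2b, the type II subunit abundant in brain, had values of 9.88 and 9.75 with fluoxetine, against 9.72 and 9.73 without. The groups only just did not overlap, and the difference was 0.09 (SE 0.07). Without untreated replicate 2 the median over the 6 genes was 0.05, and Prkacb was at −0.01. Without fluoxetine replicate 1, 2 of the 6 were negative, Prkacb at −0.03 and Prkar2a at −0.05.

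The probe sets of the PKA genes did not all point the same way. Of 20 probe sets for the 6 genes, 15 had a positive difference, against 47.5% of all probe sets with 1 symbol. Both fluoxetine arrays lay above both untreated arrays in 11 of the 20 and below them in 4, against 19.91% and 19.97% of all such probe sets, and probe sets of 1 gene are not independent. A second probe set of Prkar1a read 11.80 and 11.77 with fluoxetine, against 11.39 and 11.41 without. This was a wider gap between the groups than in the brighter probe set, with arrays of a group almost level (difference 0.39, SE 0.04; adjusted p 0.322 in limma over 34945 probe sets). The third probe set of Prkar1a pointed the other way, at −0.38 (SE 0.18). A dimmer probe set of Prkacb differed by 0.43 (SE 0.11) and another by −0.30 (SE 0.20), and 1 of the 5 for Prkar1b by 0.24 (SE 0.04). The other probe sets of Prkar2a gave 0.08 (SE 0.06), 0.38 (SE 0.13) and −0.20 (SE 0.14). Those of Prkar2b gave 0.16 (SE 0.08) and 0.21 (SE 0.09). Which transcript forms these probe sets read was not analysed here.

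**Figure D3:**
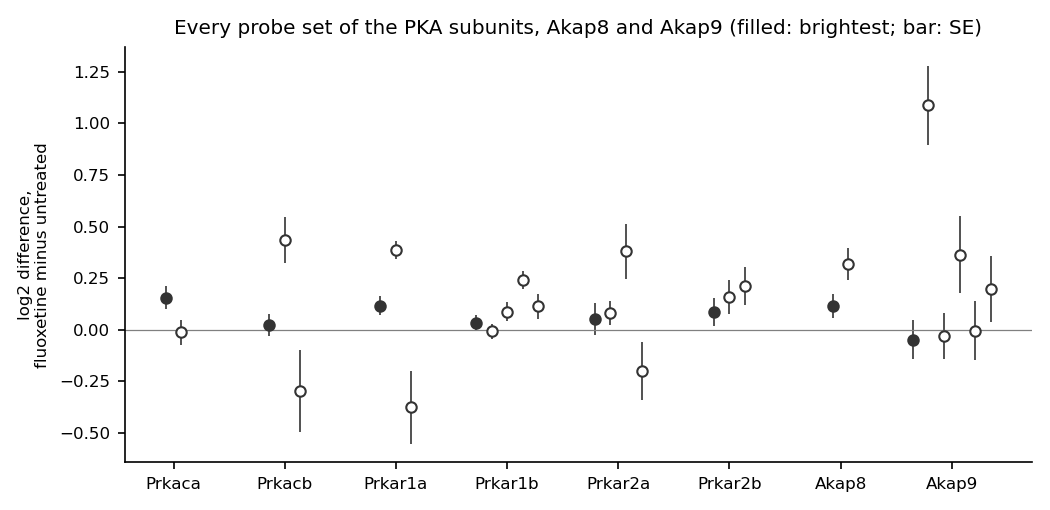
Log2 difference, fluoxetine minus untreated (vertical axis, bar: SE of limma), for every probe set of the 6 PKA subunit genes and of the anchors Akap8 and Akap9, in order of signal from left to right within a gene. Filled points are the probe sets used, which lie between −0.05 and 0.15, and open points reach from −0.38 to 1.09.

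Among the anchors, Akap11 (AKAP220, which also binds protein phosphatase 1 and the kinase GSK3) was the 1 gene with an unadjusted p below 0.05. It read 12.41 and 12.39 with fluoxetine, against 12.50 and 12.53 without, on its single probe set. The groups did not overlap, with SDs of 0.01 and 0.02 (n = 2 each), and 2 arrays estimate an SD poorly. The difference was −0.11 (SE 0.04, adjusted p 0.696 in limma), or −0.10 without untreated replicate 2. It was −0.08 after subtracting array medians and −0.14 after another quantile normalization. Akap8, a nuclear anchor, had values of 9.83 and 9.80 with fluoxetine, against 9.70 and 9.70 without. Its difference was 0.11 (SE 0.06), unchanged at 0.11 without untreated replicate 2, and the second probe set gave 0.32 (SE 0.08).

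Akap5, the anchor of the postsynaptic density that holds PKA and calcineurin near AMPA receptors, read 9.54 and 9.25 with fluoxetine, against 9.31 and 9.28 without. Only fluoxetine replicate 1 was high, and the difference of 0.10 (SE 0.10) was −0.04 without it. Akap7, a small anchor with several splice forms, differed by −0.07 (SE 0.05) with groups that did not overlap. Akap12 (gravin), which binds PKA and protein kinase C at the membrane, differed by 0.00 (SE 0.11), or 0.13 without untreated replicate 2. Akap9, the large Golgi and centrosome anchor, gave 9.83 and 9.76 with fluoxetine, against 9.71 and 9.98 without, a difference of −0.05 (SE 0.09) with overlapping groups.

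A second probe set of Akap9 showed the widest gap of all 160 member probe sets. It read 7.72 and 7.21 with fluoxetine, against 6.55 and 6.20 without. Both groups also spread widely within themselves, and the difference was 1.09 (SE 0.19; adjusted p 0.331 in limma over all probe sets). The other 4 probe sets of Akap9 ranged from −0.03 to 0.36. Akap3, a sperm-tail anchor read at low signal, had values of 4.09 and 4.41 with fluoxetine, against 4.57 and 4.54 without (difference −0.30, SE 0.17). The 9 anchors not picked out by the naming rule lay between −0.16 and 0.07, and 6 of them overlapped. Other probe sets of these anchors reached further, to 0.63 (SE 0.17) for one of Akap2 and to −0.44 (SE 0.27) for a dim one of Akap13. Over all 16 anchors the median was −0.04, and 0.03 without untreated replicate 2.

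On the cGMP side no member had an unadjusted p below 0.05. The soluble guanylyl cyclase, the receptor of nitric oxide, is a pair of an alpha and the common beta subunit. Its beta subunit Gucy1b1 read 12.13 and 11.97 with fluoxetine, against 12.03 and 11.95 without, and differed by 0.06 (SE 0.06). Gucy1a1 differed by −0.00 (SE 0.05; 0.03 after subtracting array medians) and Gucy1a2 by 0.08 (SE 0.08), and in all 3 the groups overlapped. Prkg1, which is also abundant in vascular smooth muscle, gave 8.33 and 8.24 with fluoxetine, against 8.26 and 8.09 without. Prkg1 differed by 0.11 (SE 0.09), or 0.03 without untreated replicate 2, and Prkg2, the membrane-bound form, by −0.06 (SE 0.09). The 10 vascular mural markers beside them had a median difference of 0.05, with 0 at an unadjusted p below 0.05.

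Probe sets of the same gene often disagreed in sign. Of the 62 genes 17 had 1 probe set, and among the 45 with several, 8 had all differences positive, 8 had all negative and 29 had both signs. Among the 98 probe sets not used for a gene, 10 were higher with fluoxetine at an unadjusted p below 0.05 and 1 was lower. These are 10.2% and 1.02%, against 9.81% and 2.66% of all such probe sets on the array, so that the excess of higher over lower was shared by the second probe sets of other genes. At an adjusted p below 0.05 there were 0 of 160.

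**Figure D4:**
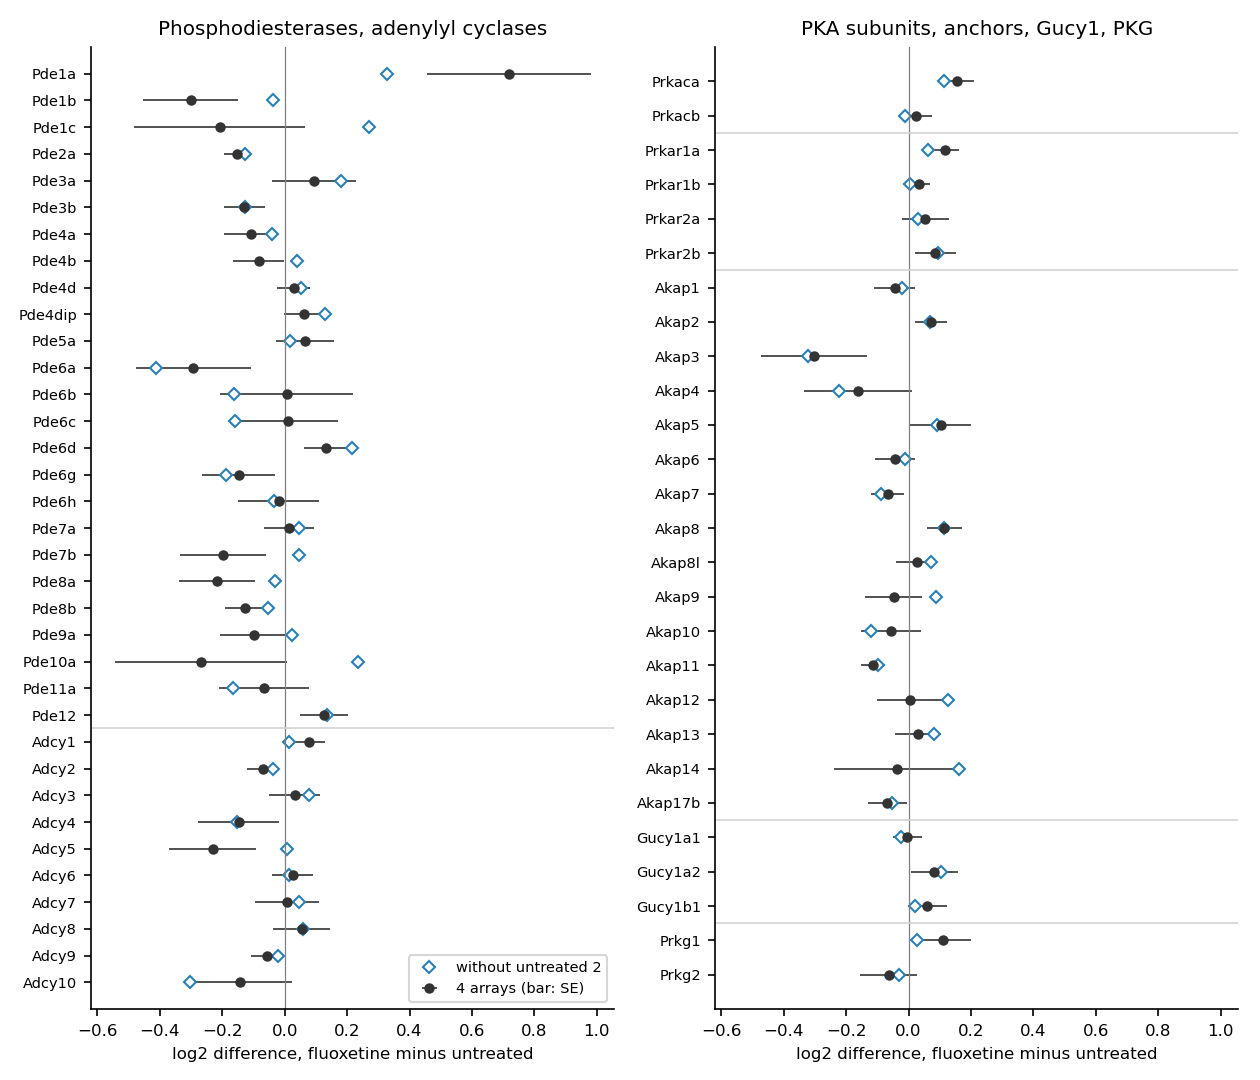
Log2 difference, fluoxetine minus untreated (horizontal axis), for each of the 62 members by family. Filled points with SE bars use all 4 arrays and open diamonds leave out untreated replicate 2; Pde10a is at −0.27 with all arrays and at 0.23 without that one, Pde1a at 0.72 and 0.33, and Akap8 at 0.11 in both.

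Other genes of the pathway, which act before or after the members, were taken from 10 lists with 76 entries, of which 67 were measured. At an unadjusted p below 0.05, 3 were higher and 1 was lower, 63 did not pass, and 0 passed the adjusted threshold. The 4 are 5.97% of the 67, against 6.96% of all genes, a share near the background. The median difference was −0.01, the same to 2 decimals as that of the members. The 3 higher were Pkia, an inhibitor protein of PKA, at 11.78 and 11.76 with fluoxetine against 11.61 and 11.56 without (difference 0.18, SE 0.04, adjusted p 0.696 in limma), Ensa, a phosphatase inhibitor related to the PKA target Arpp19 (0.15, SE 0.04), and Ppp1r12a, the myosin phosphatase subunit on which PKG acts (0.11, SE 0.04). The lower one was Gucy2e, a retinal guanylyl cyclase read at low signal (−0.49, SE 0.19). Both probe sets of Pkia were positive (0.18 and 0.30).

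The remaining pathway lists gave no gene at that threshold. The G protein alpha subunits, of which Gnas stimulates the cyclases and the Gnai forms inhibit them, had a median difference of 0.08 over 7 genes. Gnal, the stimulating form of striatum and olfactory neurons, differed by −0.24 (SE 0.11), or −0.05 without untreated replicate 2. Ppp1r1b, which encodes DARPP-32, the PKA target of striatal neurons, and the striatal gamma subunit Gng7 were also highest on untreated replicate 2. Ppp1r1b read 9.57 and 9.92 with fluoxetine, against 9.75 and 10.68 without, and its difference of −0.47 (SE 0.27) was −0.00 without that array. Gng7 differed by −0.37 (SE 0.22), or 0.03 without it; both genes are among the 17 striatal markers. The CREB family and its coactivators had a median of 0.02 over 7 genes, from −0.08 for Crtc1 to 0.18 for Crem. Creb1 itself differed by −0.02 (SE 0.06).

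The beta and gamma subunits of G proteins had a median difference of −0.01 over 14 genes, and the PACAP and VIP peptides with their receptors one of −0.00 over 5. The exchange factors gave −0.01 over 2 genes and the nitric oxide synthases −0.04 over 4. Among the synthases Nos1, the neuronal form, read 8.39 and 8.51 with fluoxetine, against 8.65 and 8.50 without (difference −0.12, SE 0.09). The 7 measured cyclic nucleotide-gated and HCN channels had a median of −0.22, with 5 of the 7 below on both fluoxetine arrays. The gated channel genes of photoreceptors and olfactory neurons, Cnga1, Cnga2, Cnga4, Cngb1 and Cngb3, were read at low signal. Of the 7 channel genes, 6 lay at or under the median level of all genes, and 4 of these 6 were below on both fluoxetine arrays, against 27.8% of all genes at such levels. Among the HCN channels of brain Hcn2 differed by −0.08 (SE 0.07) and Hcn3 by 0.04 (SE 0.11).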

How the data were processed

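The deposited values are log2 intensities per probe set, 45101 on each of 4 arrays. RMA, affy and limma appear, without versions, in the submitters' processing notes on how the authors made them. The log2 base was read from the range of the values. Total RNA of 250 ng was labelled, per the labels' protocols. Names came from the platform annotation: 34945 probe sets had 1 symbol, 932 several and 9160 none, beside 64 controls. Each gene was taken as its probe set with the highest mean, and fluoxetine minus untreated was fitted for 18193 genes with limma 3.58.1 in R 4.3.3 (intensity trend, two-sided, Benjamini-Hochberg over all genes). The fit has 2 residual and 5.15 prior degrees of freedom; a difference's SE is the moderated one. The 4 arrays limit the precision. The fit was tested on simulated data in which the changed genes differed by 1 log2 unit. No member differed by that much on the probe set used, so that test does not tell how well smaller differences are found.

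Members, lists and rules were chosen with earlier results of these data known. The naming rule picked 35 members, described by array values, by a difference with its SE, or by both. They were those at an unadjusted p below 0.05, those with non-overlapping groups and a difference of at least 0.2, and a fixed set. Pde1c, Pde8a, second probe sets and pathway genes described without an unadjusted p below 0.05 were added after their values were seen. Markers of oligodendrocytes, astrocytes, microglia, mural and endothelial cells, interneurons, cortical and striatal neurons were tallied per array. Alternatives were another quantile normalization, subtracted array medians, no intensity trend, the mean of a gene's probe sets, each other probe set, genes above the median level, and each array left out.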

Additional observations from a re-analysis of the deposited data

How the results depend on the processing

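No member and no other pathway gene passed the adjusted threshold under any alternative run (0 throughout), and no alternative changed that side of the threshold for the 35 named members. At an unadjusted p below 0.05 the counts did depend on the setting. Another quantile normalization gave 7 members lower in place of 2 (11.3%, against 6.12% of all genes in that fit). Subtracting array medians gave 0 lower (2.37% of all genes), with a median over the members of 0.025. Without the intensity trend there were 0 members higher (2.15% of all genes) and 1 lower (5.02%). Among the 67 other pathway genes 1 was higher and 2 were lower, which is 4.48%. The mean of a gene's probe sets gave 1 member lower (3.99% of all genes) and 8 other pathway genes higher (4.58% of all genes). Genes above the median level only gave a member median of 0.019 over 44 members, and 0 other pathway genes lower. With 1 array left out, where the lone array of a group is assumed to vary like the other group, the members higher numbered 0 to 4 and those lower 0 to 11, other pathway genes 1 to 4 higher and 0 to 6 lower, and the member median ran from −0.031 to 0.016. The share of higher among all genes at that threshold was 49.6%, but 33.9% after another quantile normalization, 66.2% after subtracting array medians, 30.0% without the trend and 71.5% above the median level. No paired analysis was possible because replicate numbers were given in accession order and pair nothing.

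For some named members the sign of the log2 difference turned, and the causes were not tested. After another quantile normalization the differences were −0.013 for Pde4d, −0.0013 for Adcy3 and −0.033 for Akap12, and after subtracting array medians 0.032 for Gucy1a1. With the mean of a gene's probe sets they were −0.030 for Adcy3, 0.0041 for Adcy9, 0.028 for Akap7, 0.26 for Akap9, 0.14 for Gucy1a1 and −0.083 for Gucy1a2. Single other probe sets gave −0.012 for Adcy1, −0.055, −0.041 and −0.056 for Adcy3, 0.043 and 0.033 for Adcy9, 0.12 for Akap7, 1.09, 0.36 and 0.20 for Akap9, 0.16 and 0.27 for Gucy1a1, −0.25 for Gucy1a2, −0.021 for Pde1a, 0.028 for Pde4b, 0.038 and 0.12 for Pde7b, 0.11 for Pde8b, −0.013 for Prkaca, −0.30 for Prkacb, −0.38 for Prkar1a, −0.0083 for Prkar1b, −0.20 for Prkar2a and −0.019 for Prkg1. With 1 array left out, the members whose sign turned ranged from −0.21 to 0.039 for Pde4b, −0.44 to 0.045 for Pde7b, −0.22 to 0.024 for Pde9a, −0.77 to 0.23 for Pde10a, −0.072 to 0.14 for Adcy3, −0.47 to 0.0073 for Adcy5, −0.033 to 0.082 for Prkacb, −0.049 to 0.16 for Prkar2a, −0.044 to 0.25 for Akap5, −0.18 to 0.086 for Akap9, −0.12 to 0.13 for Akap12, −0.030 to 0.022 for Gucy1a1, −0.027 to 0.19 for Gucy1a2, −0.022 to 0.14 for Gucy1b1 and −0.14 to 0.0065 for Prkg2.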

Other observations

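Among the marker lists, astrocyte markers had 3 of 10 higher with fluoxetine at an unadjusted p below 0.05 and 0 lower. Their median difference was 0.05. Of all genes, 3.45% were higher and 3.51% were lower at that threshold, and the lists were not tested as sets. Microglia markers had a median of −0.06 over 8, endothelial markers one of −0.02 over 8 and interneuron markers one of −0.00 over 11, each with 0 members at that threshold. Oligodendrocyte markers had 4 of 12 lower and 0 higher, with a median of −0.13, or 0.01 without untreated replicate 2. Cortical projection neuron markers had 3 of 11 higher and 1 lower, with a median of 0.06. The 3' minus 5' signal of the control transcripts differed by −0.09 for Actb and −0.04 for Gapdh, and by 0.15 for Tfrc and 0.14 for Pcx.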
